A study of Drosophila melanogaster with 2 samples.

Results

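The odorant (Or), gustatory (Gr) and ionotropic (Ir) receptor genes of *Drosophila melanogaster* were examined for peaks of the glial transcription factor Repo. They were taken as the protein-coding genes whose symbol is Or, Gr or Ir followed by digits and a letter in the Ensembl BDGP6 annotation. The rule gave 179 of 13945 protein-coding genes on chromosomes 2L, 2R, 3L, 3R, 4 and X: 59 odorant, 60 gustatory and 60 ionotropic receptor genes. Orco, the shared odorant co-receptor, has another kind of symbol and is described separately. The data are chromatin immunoprecipitation with sequencing (ChIP-seq) of a transgenic line, repo-GFP, that stably carries Repo with green fluorescent protein (GFP) at its C-terminus, recovered with an antibody against GFP. Whole embryos of mixed sex, 0 to 24 hours old, make up a single group with 2 biological replicates that the labels number 1 and 3. Both replicates carry the same transgene, so the lists hold no group without it, and in whole embryos the cells that gave a peak cannot be told. The comparison is therefore between the receptor genes and other genes within the same peak lists.

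Odorant receptors are membrane proteins that work with Orco in the sensory neurons of the antenna, the maxillary palp and the larval dorsal organ, and each is made in few neurons. Gustatory receptors are related proteins of taste neurons that detect sugars, bitter compounds and, in some antennal neurons, carbon dioxide. Ionotropic receptors derive from ionotropic glutamate receptors and serve smell, taste, temperature and humidity sensing together with the co-receptors Ir8a, Ir25a, Ir76b and Ir93a. Repo is a homeodomain protein of nearly all lateral glia of the embryo, where it drives glial differentiation, and it is commonly used as a marker that sets glia apart from neurons. The receptor genes are neuronal genes, so the lists show where a glial factor was placed relative to them.

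Sequences at the peaks described below are shown first, since they are what was recovered near these genes. The windows run 100 bp to either side of a summit on dm6, plus strand, and are in lower case, with capitals where a searched motif matched. Or88a and Or9a are 2 of the 3 receptor genes with a peak of the optimal list. The Or9a window stops before the transcript of its neighbour. Gr5a had the highest weaker peak, and Ir67c had a weaker peak in its own promoter in both replicates.
Or88a, optimal peak, chr3R:14108571-14108771, plus strand: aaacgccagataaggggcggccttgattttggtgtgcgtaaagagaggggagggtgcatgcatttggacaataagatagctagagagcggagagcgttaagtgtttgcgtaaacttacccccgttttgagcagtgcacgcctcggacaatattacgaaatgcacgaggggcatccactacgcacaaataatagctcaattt
Or9a, optimal peak, chrX:10460591-10460735, plus strand: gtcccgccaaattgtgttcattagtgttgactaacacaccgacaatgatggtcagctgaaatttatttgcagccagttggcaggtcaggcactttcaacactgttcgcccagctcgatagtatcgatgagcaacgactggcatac
Gr5a, weaker peak, chrX:5679112-5679312, plus strand: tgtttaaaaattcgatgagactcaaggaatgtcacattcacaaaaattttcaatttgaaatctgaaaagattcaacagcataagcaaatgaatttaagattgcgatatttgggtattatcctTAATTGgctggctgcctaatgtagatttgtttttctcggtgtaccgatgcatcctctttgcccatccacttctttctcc
Ir67c, weaker peak, chr3L:10434231-10434431, plus strand: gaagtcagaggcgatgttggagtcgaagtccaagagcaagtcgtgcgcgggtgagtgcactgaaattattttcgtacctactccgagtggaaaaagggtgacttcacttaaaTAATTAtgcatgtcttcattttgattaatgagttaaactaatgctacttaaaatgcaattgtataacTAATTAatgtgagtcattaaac
The capitals in Gr5a are TAATTG, the reverse complement of the reported Repo site CAATTA, 25 bp from the summit. The capitals in Ir67c are the general homeodomain word TAATTA, 15 and 82 bp from the summit. The 2 weaker windows shown are not typical of the rest: CAATTA was in 10 of the 75 weaker windows of receptor genes (13.3%), against 12.9% of all weaker windows, and TAATTA in 3 (4%), against 7.84%. Neither optimal window held any of the 6 motifs searched, which are named with the promoters below, where 2 whole promoters are also shown.

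The peak lists came in 2 grades. The optimal list held 2697 peaks with signal values from 84.0 to 1703, and the pooled list held 30000, of which 27302 had their summit in no optimal peak and are called weaker peaks here, with signal values from 25 to 84.0. Signal is the authors' own value per peak, on a scale that is not stated, and it was used to rank and describe peaks within a list. The replicate lists also held 30000 peaks each, background included. A gene was given a peak when a summit lay inside the stretch that opens 2000 bp before the gene and closes where the gene ends, which is called its interval. For comparison, each receptor gene was set beside the other protein-coding genes in the same of 10 classes of interval length, and the sum of their shares is called the length-matched number.

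Few receptor genes had a peak of the optimal list. The 3 genes were Or88a, Ir60e and Or9a, or 1.68% of 179 (Wilson 95% interval 0.572 to 4.81, which covers counting error only), against a length-matched number of 30.0. Of all protein-coding genes 19.7% had an optimal peak, and the count was 2748 of 13766 among those that are not receptor genes. The receptor count was thus 0.100 of the length-matched number. No test was made, because genes are not replicates and there is 1 group of samples. By family, 2 of 59 odorant receptor genes had an optimal peak, beside a length-matched 9.24. None of 60 gustatory receptor genes had one, which allows a share of up to 5.00% by the limit of 3 counts (Wilson upper limit 6.02%), beside 9.60. Among ionotropic receptor genes it was 1 of 60, beside 11.1. In the own list of each replicate, the 2697 highest peaks gave the same 3 receptor genes.

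**Figure D1:**
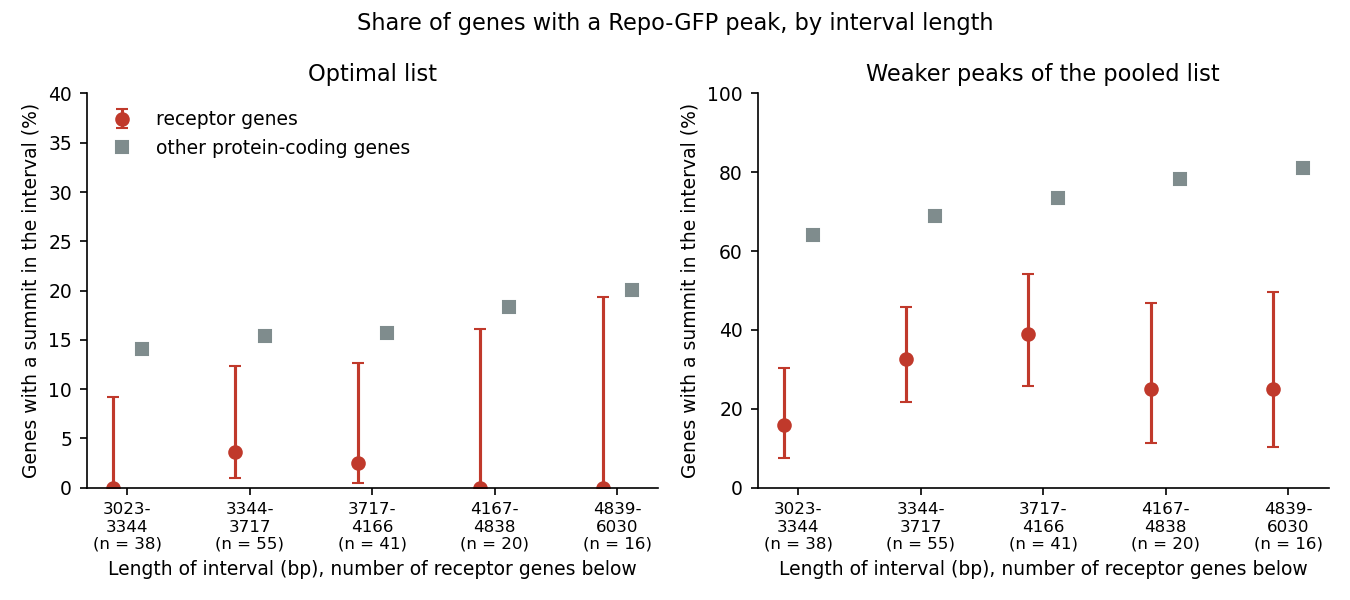
Share of genes with a summit in their interval (%), by interval length in bp, for receptor genes (red, Wilson 95% intervals) and other protein-coding genes (grey), in the 5 length classes with at least 10 receptor genes. The receptor share was lower in every class shown, for example 2.44% against 15.7% for optimal peaks and 39.0% against 73.5% for weaker peaks between 3717 and 4166 bp.

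The difference was present at each of these interval lengths. Between 3344 and 3717 bp, the class with most receptor genes, 2 of 55 had an optimal peak (3.64%), against 15.4% of the other genes. Between 3023 and 3344 bp, 0 of 38 had one, against 14.1%. The receptor intervals were compact, with a median of 3691 bp against 4184 bp in other genes, and their median GC content was 43.1% against 44.1%. Sequence that occurs elsewhere in the genome was not more frequent: a mean of 1.93% of 32-base words in receptor intervals occurred more than once, against 3.57% in other genes. Only Or19a and Or19b, near-identical copies of each other, had over 50% of such words (52.5% each). Neither had a peak of either grade, and reads from such copies may not be assigned to one place.

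The comparison changed with how complete the gene model is. Of the 130 receptor genes with no annotated 5' UTR, 3 had an optimal peak (2.31%, interval 0.788 to 6.57), against 2.22% of 361 other genes with none, and 27.7% had a weaker peak (20.7 to 35.9), against 36.6%. Of the 49 receptor genes with an annotated 5' UTR, 0 had an optimal peak (Wilson upper limit 7.27%), against 20.4% of 13405 other genes, and 32.7% had a weaker one (21.2 to 46.6), against 73.2%. The share with an optimal peak was therefore close to that of other genes only among genes with no annotated 5' UTR. Among genes with one, it was lower in receptor genes. Matched on this annotation in place of length, 12.9 receptor genes would have an optimal peak, beside 3 found. For weaker peaks the matched number was 83.4, beside 52 found.

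All 3 optimal summits lay upstream of the receptor gene and close to the start of a neighbour that runs the other way. Or88a (FBgn0038203, 3R 14109445 to 14110823, plus strand) encodes a receptor for methyl esters of fatty acids carried by flies. Its peak (14108473 to 14108868) had a signal of 134 and rank 1162 of the optimal list, and the replicates' own lists held it at 87.4 and rank 633 in replicate 1 and at 56.8 and rank 1725 in replicate 3. The summit was 774 bp upstream of Or88a, between genes, and 350 bp from the start of CG12402 (FBgn0038202). It was within 500 bp of the start of CG12402 only, which is the distance used here for a promoter.

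Or9a (FBgn0030204, X 10458186 to 10459676, minus strand) encodes an odorant receptor of the adult antenna. Its peak (X 10460493 to 10460888) had a signal of 107 and rank 1751, with 54.5 and rank 1736 in replicate 1 and 58.5 and rank 1639 in replicate 3. The summit lay 1015 bp upstream of Or9a and 45 bp from the start of Neb-cGP (FBgn0083167). That placed it in the promoter of Neb-cGP and not of Or9a. The ranks in the replicates were close to each other for this peak and further apart for that of Or88a.

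Ir60e (FBgn0035019, 2R 24529554 to 24531272, minus strand), an ionotropic receptor gene, was the one member whose own promoter held an optimal summit. Its peak (24531374 to 24531769) had a signal of 131 and rank 1208, with 61.9 and rank 1316 in replicate 1 and 63.5 and rank 1416 in replicate 3. The summit was 300 bp upstream of Ir60e and 22 bp from the start of CG13585 (FBgn0035020), so it lay in both promoters and nearer to CG13585. A weaker peak with a signal of 54.8 followed within CG13585, 1042 bp upstream of Ir60e. One receptor gene of 179 thus had an optimal peak in its own promoter (0.559%, interval 0.0987 to 3.10), beside a length-matched number of 22.7 and 13.6% of all protein-coding genes. Among genes with no annotated 5' UTR it was 1 of 130 receptor genes (0.769%, interval 0.136 to 4.23), against 1.11% of 361 other genes. With an annotated 5' UTR it was 0 of 49 (Wilson upper limit 7.27%), against 14.1% of 13405. Which gene of a pair a shared peak acts on was not tested.

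**Figure D2:**
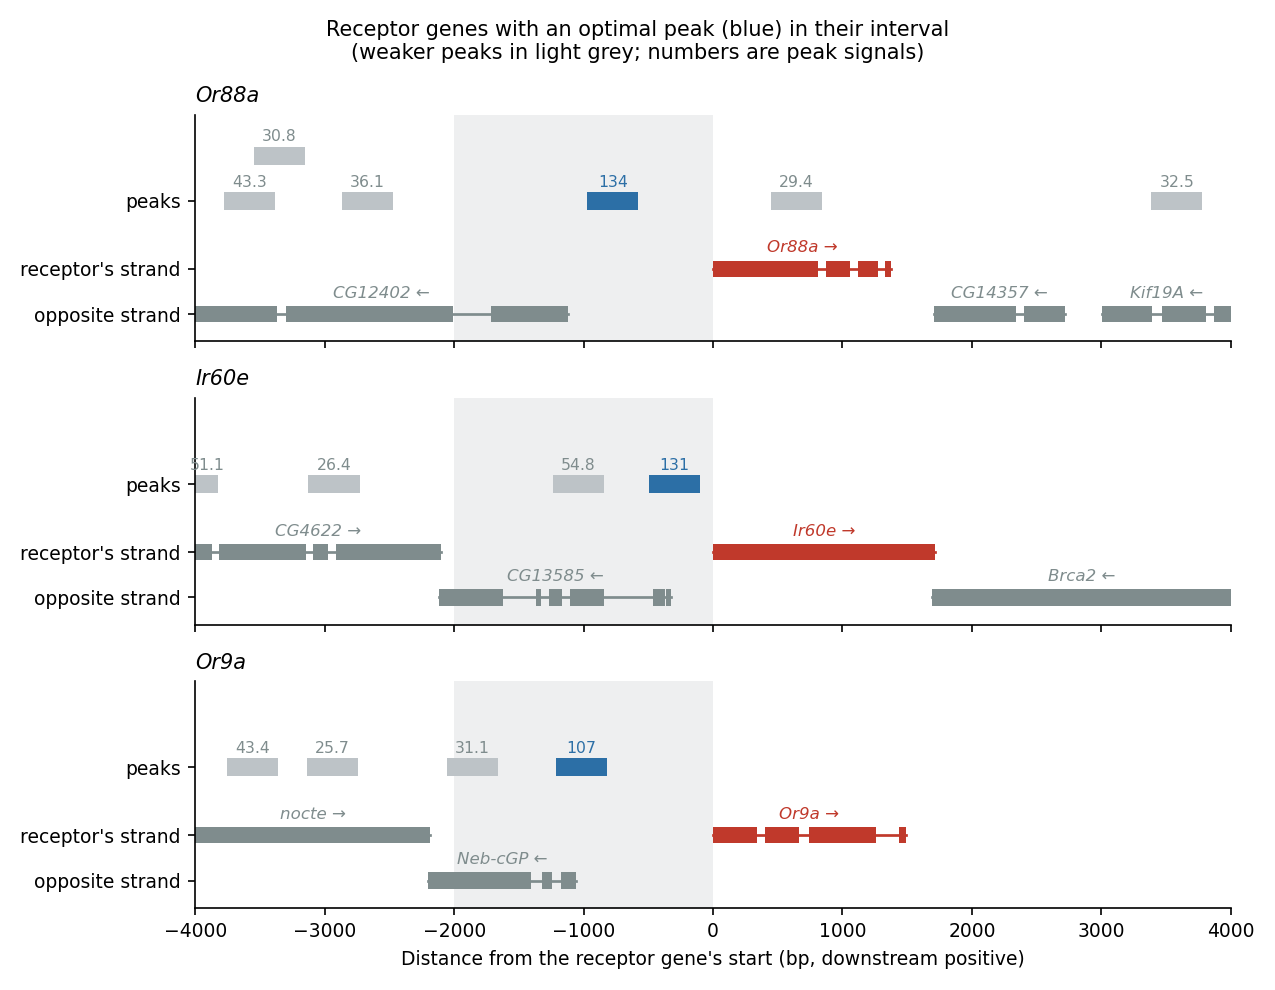
Map of the 3 receptor genes with an optimal peak, drawn from the receptor's start (0, bp, downstream to the right), with genes on the receptor's strand (receptor in red) and on the opposite strand (boxes are exons), optimal peaks in blue, weaker peaks in light grey and signals above them. The upstream 2000 bp are shaded, and the optimal peaks of Or88a, Ir60e and Or9a (134, 131 and 107) each sit beside the start of a gene on the opposite strand.

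Start sites of the neighbours were counted in the same way. In all, 47 other protein-coding genes had a start site inside a receptor interval. An optimal summit lay within 500 bp of any start site of the gene in 1 of 179 receptor genes (0.559%), in 4 of these 47 neighbours (8.51%, interval 3.36 to 19.9) and in 13.8% of all other protein-coding genes. The neighbours were CG12402, CG13585, Neb-cGP and p53. The p53 summit, with a signal of 144.5, fell outside the interval of the receptor gene beside it, Gr94a, 1225 bp beyond that gene's end. It was counted for a p53 start site that also lies outside that interval. For weaker summits the same shares were 6.70% of receptor genes, 40.4% of the neighbours (interval 27.6 to 54.7) and 45.5% of all other genes. The intervals of the neighbours included the general shares, and those of the receptor genes lay below them. The general shares come mostly from genes with an annotated 5' UTR. Among genes with none, the optimal shares were 0.769% of receptor genes and 1.11% of other genes.

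A start site of another gene lay in the interval of 69 receptor genes (38.5%, interval 31.7 to 45.9), beside a length-matched number of 104.4 and 58.4% of all protein-coding genes. Other receptor genes count as other genes here, unlike among the neighbours described before. For some members, such as Gr22b and Gr98c, a clustered receptor gene gave the only such start site. The shares that follow were not split by the kind of neighbour. All 3 optimal peaks fell in these 69 genes (4.35%), against 26.1% of the 8081 other genes with such a site. Among the 110 receptor genes without one, 0 had an optimal peak, which allows a share of up to 2.73% by the limit of 3 counts (Wilson upper limit 3.37%), against 11.3% of 5685 other genes. The receptor share was the lower one in both groups of genes. Weaker peaks occurred in 39.1% of the 69 and in 22.7% of the 110, against 79.8% and 61.4% of other genes.

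No optimal summit lay inside a receptor gene. The median distance from the start to the nearest optimal summit was 27445 bp in receptor genes and 12676 bp in other genes. Within 2000 bp lay 5 of 179 starts (2.79%, interval 1.20 to 6.37), against 18.2% of other starts. Within 10000 bp the shares were 23.5% and 44.0%, and within 20000 bp 41.9% and 62.2%. By family the medians were 43147 bp for odorant and 19007 bp for gustatory receptor genes.

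**Figure D3:**
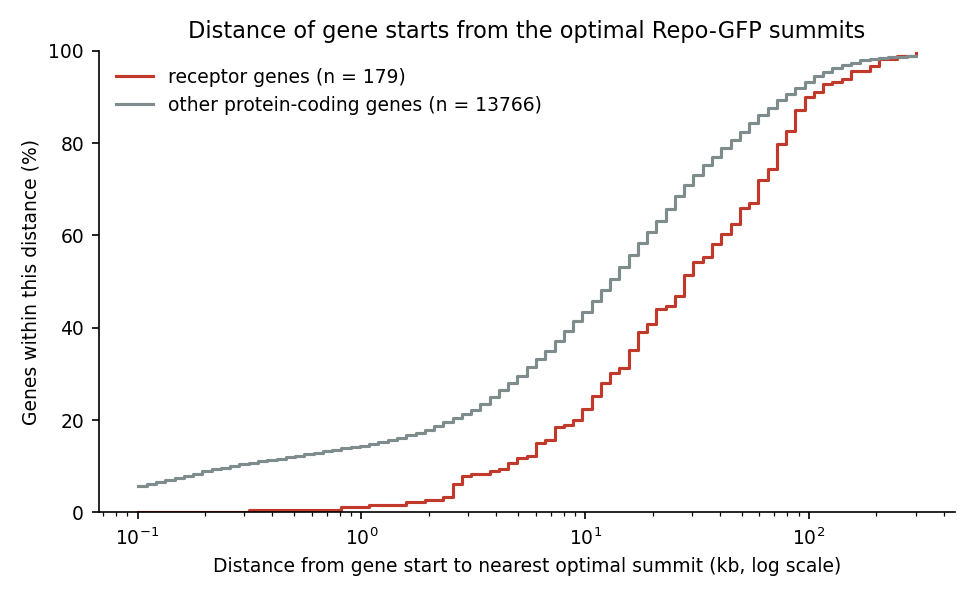
Cumulative share of genes (%) whose start lies within a given distance (kb, log scale) of an optimal summit, for 179 receptor genes (red) and 13766 other protein-coding genes (grey). The receptor curve runs below the other one up to large distances, with 2.79% against 18.2% at 2 kb and 41.9% against 62.2% at 20 kb.

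An optimal summit lay within 5000 bp of either end of 25 receptor genes (14.0%, interval 9.64 to 19.8), against 36.0% of other genes. There were 30 such summits, of which 20 lay in a promoter of another gene, 10 in no promoter and 0 inside a receptor gene, and of all 2697 optimal summits 55.1% lay in a promoter. Ir25a, the broadest ionotropic co-receptor, had the highest of them, with a signal of 623 and rank 36, 2564 bp upstream in the promoters of CG12194 and tank. Ir68b had a peak of signal 335 lying 318 bp beyond its end in the promoter of yps, a gene of an RNA-binding protein. Gr5a, the trehalose receptor gene, had a signal of 237 at 2533 bp upstream in an intron of Tre1, a receptor gene of germ cell migration. Gr63a, which encodes part of the carbon dioxide receptor, had one of 145 in the promoter of Ccz1, 2555 bp upstream. Ir31a had one 67 bp beyond its end, in the promoters of Ip259 and RpS27A, whose peak but not its summit reached into the gene.

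Weaker peaks were also fewer at the receptor genes. They were found in 52 of 179 (29.1%, interval 22.9 to 36.1), beside a length-matched number of 129.0 and 71.6% of all protein-coding genes. Weaker peaks whose summit also lay in a peak of both replicates' own lists were found in 22 (12.3%, interval 8.26 to 17.9), beside 85.3 and 50.1%. The count was 0.403 of the length-matched number for all weaker peaks and 0.258 for those found in both replicates. In the families, 12 of 59 odorant, 19 of 60 gustatory and 21 of 60 ionotropic receptor genes had a weaker peak, beside 41.2, 42.0 and 45.9 length-matched. Those found in both replicates were at 5, 9 and 8 genes, in the same order, beside 26.5, 27.4 and 31.3 length-matched. In the replicates' own complete lists, 51 receptor genes had a peak in replicate 1 and 75 in replicate 3, beside 130.0 and 136 length-matched, and 39 in both, beside 117.5.

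The peaks were spread thinly. No weaker summit lay at 127 receptor genes (70.9%), against 27.8% of other genes, and the most at one gene was 4, at Ir68b and Gr97a. Their intervals together covered 753 kb and held 75 weaker summits, or 9.96 per 100 kb, against 24.6 per 100 kb in the intervals of other genes. For optimal summits the densities were 0.398 and 2.47 per 100 kb. The 75 summits were of ordinary height for the list, with a median signal of 33.3 against 34.7 for all weaker peaks and a range of 25 to 78.1. Of them 28 lay in a peak of both replicates (37.3%, against 41.3% of all weaker summits), 22 in replicate 1 alone, 19 in replicate 3 alone and 6 in neither.

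**Figure D4:**
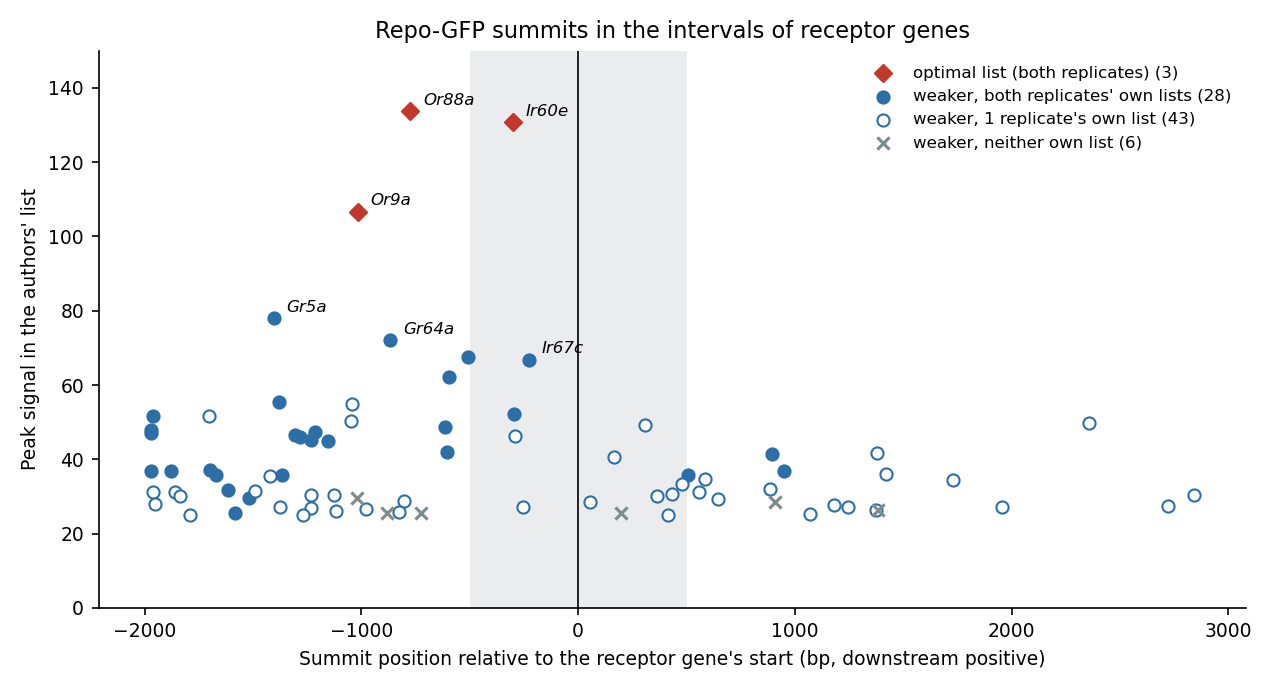
Every summit in a receptor interval, by its position relative to the receptor's start (bp, downstream positive) and its signal in the authors' list, with the own promoter (500 bp either side) shaded and a summit shared by 2 receptor genes drawn at each. The 3 optimal peaks at 107 to 134 and the highest weaker peaks, up to 78.1, lie upstream, and most summits inside the genes are found in 1 replicate's list.

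Gustatory receptors are described by what they sense. Gr5a had the highest weaker peak of all, with a pooled signal of 78.1 and ranks 5186 in replicate 1 and 2739 in replicate 3, 1405 bp upstream in a Tre1 intron, and its other weaker summit (28.9) lay in the promoter of Tre1. In the cluster of 6 Gr64 sugar receptor genes, the first gene, Gr64a, had the only weaker peaks, of 72.1 and 31.6, both in the promoters of CG11594 transcripts and both found in both replicates. Of 9 sugar receptor genes 2 had a weaker peak, beside 7.01 length-matched, and Gr43a, the fructose sensor that also acts in the brain, had none of either grade. The carbon dioxide receptor genes Gr21a and Gr63a had 1 each, of 27.0 in replicate 3 alone and of 46.4 in replicate 1 alone. The Gr63a summit lay 292 bp upstream of Gr63a and 5 bp from the start of Lamtor4. Of 6 bitter receptor genes 3 had a weaker peak, beside 4.45 length-matched, and Gr28a and Gr28b had none, beside 1.60. The highest summits of Gr66a (45.3, in a coding exon of BI-1) and Gr32a (41.9, in the promoter of Idua) were found in both replicates. That of Gr93a (40.7, in its own promoter) was in replicate 1 alone, and a Gr93a summit of 35.8 between genes was in both. For the carbon dioxide and bitter receptor genes the Wilson intervals (34.2 to 100% and 18.8 to 81.2%) included the length-matched share. For the sugar receptor genes and the Gr28 genes they lay below it (6.32 to 54.7% and 0 to 65.8%). These groups hold few genes, and the clustered Gr64 and Gr28 genes are not independent. Gr97a had 4 weaker summits, the highest of 62.1 in the promoter of CG5521 with rank 4544 in replicate 1 and 9881 in replicate 3.

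Ionotropic receptors included the clearest weaker peak at a receptor's own start. Ir67c had a signal of 66.9, with ranks 8524 in replicate 1 and 3123 in replicate 3, 226 bp upstream of its start and in no other gene's promoter. The one further member with an own-promoter summit found in both replicates was Ir60b, a receptor gene that limits sucrose feeding, with 52.2 at 297 bp upstream, in the promoter of Letm1 as well, and a further summit of 67.4 at 509 bp upstream in the promoter of Letm1 alone. In replicate 1 both of these summits lay in the same peak, with a signal of 23.7 and rank 10604, so that list did not separate them. Of the 4 co-receptors, Ir25a had 3 weaker summits with the highest at 48.7 in a coding exon of tank, Ir76b had 1 of 49.8 in its own coding sequence in replicate 3 alone, Ir93a had 1 of 30.4 within KaiR1D in replicate 1 alone, and Ir8a had none. Among 10 antennal ionotropic receptor genes 3 had a weaker peak, beside 8.18 length-matched. The highest was that of Ir31a, 55.5 in the promoter of CG17768, with rank 18991 in replicate 1 and 3887 in replicate 3. Of 3 temperature and humidity receptor genes, Ir21a (27.3) and Ir68a (25.4) had one and Ir40a had none, a count of 2 beside 2.53 length-matched. Both signals were near the lowest of the list, 25, with Ir21a in replicate 3 alone and Ir68a in neither replicate's list. Ir51b had 1 of 51.7, 1703 bp upstream, in replicate 3 alone. Ir68b, with 4, had its highest at 41.8 in its own coding exon.

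Among odorant receptors weaker peaks were fewest, at 20.3% of genes. The Wilson interval of 12.0 to 32.3% overlapped those of gustatory (21.3 to 44.2%) and ionotropic (24.2 to 47.6%) receptor genes. Of 25 genes used in the larva, which forms in these embryos, 4 had a weaker peak (16.0%, interval 6.40 to 34.7), beside 17.3 length-matched, and 1 had one found in both replicates, Or45b at 51.6, between genes and 1960 bp upstream. None of the 25 had an optimal peak, beside 3.90 length-matched, which allows a share of up to 12.0% by the limit of 3 counts (Wilson upper limit 13.3%). Or2a had 3 weaker summits, the highest of 49.2 at 309 bp inside the gene, each in 1 replicate's list. Or71a, an odorant receptor gene of the maxillary palp inside an intron of the centrosome gene Plp, also had 3, the highest of 50.4 in a promoter of Plp in replicate 1 alone. Orco, outside the rule, had 0 optimal peaks and 1 weaker peak of 41.4, found in both replicates.

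By place, the weaker summits were mostly at promoters and coding exons and seldom in introns. Of the 75, 32 lay in a promoter (42.7%, interval 32.1 to 54.0), against 26.4% of all weaker summits, and 26 in a coding exon (34.7%, against 25.4%). Introns held 4 (5.33%), against 29.8%, and intergenic sequence 9 (12.0%, against 13.2%). Each receptor interval holds by definition a start site and the 2000 bp before it, whereas all weaker summits come from the whole genome. How much of the intervals is promoter, exon or intron was not matched, so these shares cannot be read as a preference for a place. Of the 32 promoter summits 20 were in a promoter of another gene only, 9 of a receptor gene only and 3 of both. Inside a receptor gene lay 29 of the 75.

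Many receptor genes stand in clusters of relatives. Of the 179, 79 lay within 5000 bp of another, and 16 of these had a weaker peak (20.3%), against 36 of the 100 that stand alone (36.0%). Neighbours in a cluster share sequence and surroundings and are not independent. Of 15 clusters with 3 or more genes, holding 53 genes, 9 had no peak of either grade in any interval. These included the 5 genes Gr22a to Gr22e, the 5 genes Ir7c to Ir7g, the 4 genes Ir52a to Ir52d, and Or33a to Or33c. Of the 179, 22 lay inside an intron of another gene, 4 of which are also among the 79. A weaker peak was found at 6 of the 22 (27.3%, interval 13.2 to 48.2), against 49.1% of 1346 other nested genes, and an optimal one at 0, against 7.73%. The longest receptor interval, that of Ir41a with 106437 bp, held no peak of either grade.

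The promoters of the receptor genes differed in sequence from those of other genes. Promoters were read from 250 bp before to 50 bp after each gene start on dm6, and a motif counted when it occurred on either strand. The reported Repo site CAATTA occurred in 94 of 179 receptor promoters (52.5%, interval 45.2 to 59.7), against 24.8% of all other promoters. The homeodomain word TAATTA, which differs from it in the first letter and can overlap it, occurred in 44.7% (37.6 to 52.0), against 20.1%. GC content of the promoters was 39.5% against 39.1%. By family CAATTA was in 59.3% of odorant, 35.0% of gustatory and 63.3% of ionotropic receptor promoters. Other genes with an optimal peak in their own promoter had CAATTA in 24.7% of promoters. A match is a description of the letters and not a site.

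The annotated starts limit what these windows and all distances to a receptor's start mean. A 5' UTR was annotated for 49 of 179 receptor genes (27.4%), against 97.4% of other genes, so most receptor genes begin at the start codon in the annotation and their true start may lie upstream. CAATTA occurred in 36.7% of the 49 receptor promoters with an annotated 5' UTR (interval 24.7 to 50.7), against 24.6% of such other genes, and in 58.5% of the 130 without (49.9 to 66.6), against 34.3% of 361 such other genes. For TAATTA the shares were 40.8% against 19.9% with an annotated 5' UTR and 46.2% against 28.3% without. Among genes without one, the Dref site was in 0.769% of receptor promoters against 1.11%, and the M1BP site in 0 of 130 against 0.554%.

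Peaks were rare at receptor promoters with and without CAATTA. Of the 94 receptor promoters with CAATTA, 1 had an optimal summit within 500 bp of the start (1.06%) and 6 a weaker one (6.38%), against 13.7% and 41.8% of the 3420 other genes with it. Of the 85 receptor promoters without it, 0 had an optimal and 6 a weaker summit (7.06%), against 13.8% and 46.7% of the other genes without it. These shares were not split by gene model, and a 5' UTR was annotated for 27.4% of receptor genes against 97.4% of other genes. Among genes with no annotated 5' UTR, with or without CAATTA, the optimal shares were 0.769% of receptor genes and 1.11% of other genes. Next, 2 promoters are given to show such words where no peak of either grade was listed. They were chosen among receptor genes with an annotated 5' UTR and no such peak in the interval, from the chromosomes printed here. These 2 had most matches in the 250 bp before the start. Capitals mark CAATTA, its reverse complement TAATTG and TAATTA, and both run on the gene's own strand, the minus strand of dm6.
Gr28b, promoter, chr2L:7462248-7462497, minus strand: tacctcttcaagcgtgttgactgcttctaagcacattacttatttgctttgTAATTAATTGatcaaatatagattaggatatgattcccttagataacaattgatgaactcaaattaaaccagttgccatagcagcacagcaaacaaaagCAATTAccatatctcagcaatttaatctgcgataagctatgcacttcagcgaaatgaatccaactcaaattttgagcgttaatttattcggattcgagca
Ir11a, promoter, chrX:12377756-12378005, minus strand: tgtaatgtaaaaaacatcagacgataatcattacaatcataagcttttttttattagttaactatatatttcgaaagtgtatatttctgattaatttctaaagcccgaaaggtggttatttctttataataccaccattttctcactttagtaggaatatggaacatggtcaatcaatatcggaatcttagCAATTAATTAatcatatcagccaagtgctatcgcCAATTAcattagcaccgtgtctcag
Gr28b, a gustatory receptor gene that also serves temperature sensing, and Ir11a each had 2 matches to CAATTA and 1 to TAATTA, overlapping in part. The own list of replicate 3, background included, held 1 summit in the interval of Gr28b. The nearest optimal summit lay 25276 bp from the start of Gr28b and 133156 bp from the start of Ir11a. Of the 179 receptor genes 47 had no match to either word in the 250 bp, 71 had 1 and 40 had 2.

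Words known from promoters of broadly expressed genes, bound by Dref and M1BP, were scarce in the receptor promoters. The Dref site TATCGATA was in 1 receptor promoter (0.559%), against 9.47% of other promoters and 15% of those of other genes with an optimal peak in their own promoter. The M1BP site GGTCACAC was in 0 of 179, which allows a share of up to 1.68% by the limit of 3 counts (Wilson upper limit 2.10%), against 7.80% and 10.9%. The site GAGAGAG of GAGA factor, which opens chromatin at many developmental genes, was in 1.12%, against 5.93% and 7.01%. The TATA box word TATAAA was in 54.2% (46.9 to 61.3), against 45.7% and 41.5%, and by family in 78.0% of odorant, 30.0% of gustatory and 55.0% of ionotropic receptor promoters. Other genes with no peak of either grade had the Dref site in 2.90% of promoters and the M1BP site in 1.42%, and CAATTA in 27.8%. Their share with GAGAGAG was 4.32%, above the receptor interval of 0.307 to 3.98. Among genes with no annotated 5' UTR, however, GAGAGAG was in 1.54% of 130 receptor promoters (interval 0.423 to 5.44), against 1.66% of 361 others. With an annotated 5' UTR it was in 0 of 49 (Wilson upper limit 7.27%), against 6.04%.

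**Figure D5:**
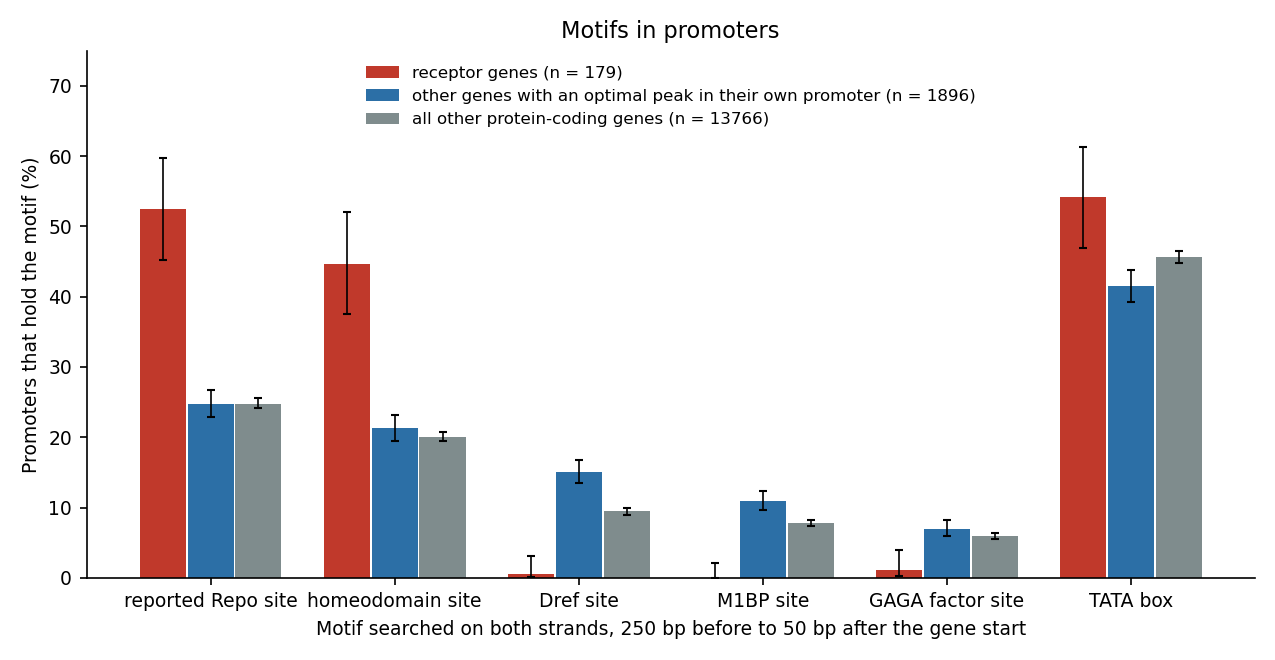
Share of promoters (%) that hold each of 6 motifs, for receptor genes (red), other genes with an optimal peak in their own promoter (blue) and all other protein-coding genes (grey), with Wilson 95% intervals. Receptor promoters held the reported Repo site in 52.5% and the homeodomain site in 44.7%, above both other groups, and the Dref, M1BP and GAGA factor sites in at most 1.12%, below both.

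Other genes of the chemical senses were read from a list of 60 that includes 51 odorant binding protein (Obp) genes. An optimal peak was found at 3 of the 60 (5%, interval 1.7 to 13.7), beside 7.43 length-matched and 19.7% of all protein-coding genes. A weaker peak was found at 20 (33.3%, interval 22.7 to 45.9), beside 34.2 and 71.6%. The optimal interval included the length-matched share, and the weaker one lay below it. The 3 were Obp99b with a signal of 177, Obp59a with 100.5 and ppk29, a sodium channel gene of pheromone sensing, with 172. Of 12 regulators of sensory organs and receptor choice, 1 had an optimal peak, Rfx (90.8), a gene of a factor for cilia of sensory neurons, and 8 had a weaker one, beside 3.47 and 9.62 length-matched. The Wilson intervals for these regulators (1.49 to 35.4% and 39.1 to 86.2%) included the length-matched shares. Among those with a weaker peak were acj6 and pdm3, POU factors that select odorant receptors, with 5 and 10 weaker summits.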

How the data were processed

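Peak lists on dm6 were used, with 1 list from each of replicates 1 and 3, 1 pooled list and 1 optimal list kept after an irreproducible discovery rate (IDR) step, per the labels. The lists on dm3 were not used here. The signal value of each peak is the authors' own, deposited with the lists, on a scale that is not stated, and summits were placed from the deposited summit offsets. How reads were aligned, peaks called and the IDR step thresholded was not given in the sources used here. Library depth is unknown, as read counts are absent from the lists. Genes came from Ensembl release 115 (BDGP6) and sequence from the dm6 RefSeq assembly. Members and lists were chosen with earlier results of these data known. A summit was counted from 2000 bp upstream to the gene end, and a promoter was 500 bp either side of a start site. The length-matched number is the sum over members of the share of other protein-coding genes with a peak in the same of 10 classes of interval length. Shares have Wilson 95% intervals, which cover counting error only, and no test was made. Where a count was 0, the share that 3 counts of the total would give is printed beside the Wilson upper limit. Weaker peaks are those of the pooled list whose summit lies in no optimal peak, and one was found in a replicate when its summit lay in a peak of that replicate's list. Repeated sequence was counted as 32-base words that occur more than once on either strand. Named genes were those with an optimal peak, the 10 with the highest weaker summit, the 5 with most weaker summits, those with a weaker summit in their own promoter in both replicates, and the co-receptors, Gr21a, Gr63a, Gr43a and Orco. Further genes, among them those within 5000 bp of an optimal summit, the clusters and the shown promoters, were chosen after their values were seen. The counting was tested on simulated peaks. Python 3.11.15, numpy 2.4.6 and scipy 1.17.1 were used. Alternatives were other intervals, overlap in place of summits, the upper part of each list, each replicate alone, and other matching, of which matching on GC content, on another start site and on an annotated 5' UTR was added after seeing the data.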

Additional observations from a re-analysis of the deposited data

How the results depend on the processing

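Of 42 alternatives, 24 gave a value within 1.5 times of the one reported and 18 did not. The number of receptor genes with an optimal peak was 0 over gene bodies alone, 1 from 500 bp upstream and 15 from 5000 bp upstream. For weaker peaks it was 25 over gene bodies, 28 from 500 bp upstream and 28 with the upper 50% of the weaker peaks. For weaker peaks found in both replicates it was 3, 5 and, from 5000 bp upstream, 43. An optimal peak in the own promoter was found at 0 genes over gene bodies, at 0 within 250 bp of a start and at 2 within 1000 bp. A start site of another gene lay in 10 gene bodies, in 25 intervals from 500 bp and in 119 from 5000 bp upstream. These intervals differ in length, so the length-matched numbers move with them. In all settings, other matching included, the count was below the matched number. It was 0 to 0.356 of that number for optimal peaks, 0.256 to 0.624 for weaker ones, 0.0621 to 0.466 for those in both replicates and 0.390 to 0.847 for another start site. The values 0.624 and 0.466 came from matching on an annotated 5' UTR in place of length. Without replicate 1 or without replicate 3, with the other replicate's own list in place of the pooled one, optimal peaks were at 3 genes each time, weaker peaks at 74 and 51, and own promoter peaks at 1 each time. The length-matched number was 24.4 to 30.3 for optimal peaks, 119.9 to 130.1 for weaker ones and 76.3 to 85.3 for those in both replicates with other length classes, GC content or another start site. Matched on an annotated 5' UTR in place of length, the numbers were 12.9, 83.4 and 47.2. No paired analysis was possible because the series has 1 group. The lists give no read depth, so a gene without a peak cannot be told from one with a peak under the detection limit of the lists.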
